A study of Mus musculus with 5 samples.

Results

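The genes described here encode nuclear subunits of the mitochondrial respiratory chain and of ATP synthase. They were chosen by symbol, as all genes with a single platform symbol that begins with Nduf, Uqcr, Cox4, Cox5, Cox6, Cox7, Cox8 or Atp5, together with Sdha, Sdhb, Sdhc and Sdhd. The rule gave 89 of the 19937 genes on the array: 34 subunits of complex I, 7 complex I assembly factors (Ndufaf genes), 4 subunits of complex II, 8 of complex III, 19 of complex IV (Ndufa4 and Ndufa4l2 counted here) and 17 of ATP synthase.

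The respiratory chain of the inner mitochondrial membrane passes electrons from NADH (complex I) and succinate (complex II) through ubiquinone, complex III and cytochrome c to oxygen at complex IV, and ATP synthase uses the proton gradient so built to make ATP. A few core subunits are encoded by mitochondrial DNA and all others by nuclear genes, so that most subunits are made outside the organelle and imported. Naive and resting T cells draw on this pathway for most of their ATP, and activation raises both glycolysis and mitochondrial mass.

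The study asked how loss of Cnb1 in T cells changes gene expression in colon T cells that are not fully differentiated. Cnb1 (gene symbol Ppp3r1) is the regulatory subunit of calcineurin, a phosphatase switched on by calcium that lets NFAT factors enter the nucleus. All 5 arrays measured RNA of CD45+CD3+CD4+CD44low cells sorted from mouse colon lamina propria. The 3 conditional arrays came from mice labelled CD4cre/Cnb1flox, and the 2 control arrays from mice labelled CD4neg/Cnb1flox and also "WT". Both groups therefore carry the floxed Cnb1 allele, and only the conditional group carries the Cre recombinase driven by CD4, so presence of Cre and loss of Cnb1 cannot be told apart. CD4-driven Cre acts in thymocytes before the CD4 and CD8 lineages separate, so that cells of both lineages lose the floxed allele. The submitters describe 3 independent experiments with 3 to 5 mice per group. The labels do not say whether an array holds 1 mouse or a pool, and give no age, sex or strain. The p-values thus reflect how far these 5 samples varied, whatever the source of that variation.

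Levels are deposited log2 values, so that a difference of 1 is 2-fold. Ppp3r1 itself was at 8.64, 8.83 and 8.77 on the conditional arrays and at 8.99 and 8.60 on the control arrays. Which part of the gene is removed is not stated in the labels, so this probe set checks nothing. The control arrays were unlike each other in cell type markers. The mean level of 12 T cell markers stood 2.10 below its mean over the 5 arrays in control 1 and 0.64 above it in control 2, against 0.38, 0.47 and 0.61 above it in conditional 1, 2 and 3, and all 12 genes were lower in control 1 than in control 2. Cd3e, a chain of the T cell receptor complex, was at 9.45 in control 1 and at 12.21 in control 2. The mean of 18 colon epithelium markers stood 1.37 above its average in control 1 and 0.29 above it in control 2. For 14 stroma and endothelium markers control 1 stood 1.44 above and control 2 0.28 below. The calls were therefore also made with each control left out. In bulk RNA of this kind, fewer cells of a type and less RNA per cell cannot be told apart.

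Across the respiratory chain and ATP synthase the 5 arrays were close to one another. The median level of the 89 genes was 9.20, 9.39 and 9.29 on conditional arrays 1, 2 and 3 and 9.33 and 9.32 on control arrays 1 and 2, so the control values lay inside the conditional range. The median difference between the groups, conditional minus control, was 0.03 over the 89 genes and 0.03 over all genes. Of the 89 genes, 51 had a higher and 38 a lower mean in the conditional group. The differences ran from -0.58 for Cox6b2 to 0.62 for Ndufaf5.

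None of the 89 genes passed the threshold of an adjusted p of 0.05 in limma's moderated test with Benjamini-Hochberg adjustment over all genes, where 83 of the 19937 genes did (0.416%), 74 of them higher (0.371%) and 9 lower (0.0451%) in the conditional group. At an unadjusted p under 0.05, limma gave 4 of the 89 genes (4.49%), all higher in the conditional group, beside 14.5% of all genes, with 8.59% higher and 5.91% lower. The groups did not overlap for 25 of the 89 genes (13 higher and 12 lower in the conditional group), which is 28.1%, beside 30.5% of all genes, with 17.4% higher and 13.1% lower. The share without overlap was thus near that of the whole array, and the share at an unadjusted p under 0.05 was below it. Of the 89 genes, 74 had a mean level at or above the array's median. The groups did not overlap for 29.7% of these, beside 41.3% of the 9969 genes at that level. The smallest adjusted p of the 89 genes in limma was 0.144.

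The differences were small in size. Their median size was 0.11, beside 0.16 for all genes and 0.27 for the 9969 genes whose mean level was at or above the array's median, a level that 74 of the 89 genes also reached. Over those 74 genes the median size was 0.10. A difference larger than 0.5 (1.41-fold) was seen for 3 of the 89 genes (3.37%), beside 18.8% of all genes and 27.4% of the genes at or above the median level. A difference larger than 1 was seen for 0 of the 89, beside 6.48% of all genes. The limma 95% confidence interval of the difference lay between -1 and 1 for 86 of the 89 genes (96.6%), beside 77.5% of all genes, and between -0.5 and 0.5 for 49 (55.1%), beside 39.0% of all genes. The 3 genes whose interval reached past a 2-fold difference were Cox6b2, Uqcr11 and Ndufaf5. The median distance from the estimate to the end of its interval was 0.33. For a typical gene of the chain, differences under about that size could not be told from 0 even before adjustment. Larger ones could also miss the threshold, as did Uqcrc1 at 0.51 (limma adjusted p = 0.144). These genes also varied less between the control arrays, with a median size of the gap between control 1 and control 2 of 0.16, beside 0.28 for all genes.

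**Figure D1:**
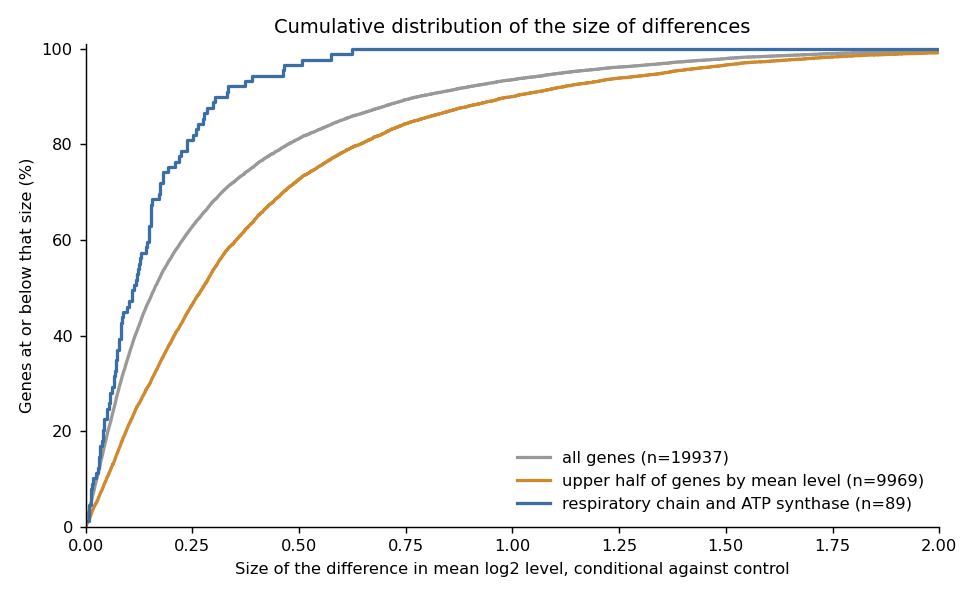
Cumulative share of genes (y axis, percent) whose difference between conditional and control group means is at or below a given size (x axis, log2), for all 19937 genes, for the 9969 genes at or above the median level and for the 89 respiratory chain and ATP synthase genes. The curve of the 89 genes lies to the left of the others, with a median size of 0.11 beside 0.16 and 0.27.

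By complex, the median difference was 0.01 for complex I, -0.01 for the Ndufaf assembly factors, -0.01 for complex II, 0.12 for complex III, 0.03 for complex IV and 0.03 for ATP synthase. The median of all genes was 0.03. In complex III 6 of 8 genes were higher in the conditional group, and its median of 0.12 became 0.0044 without control 1 and 0.15 without control 2. The median of complex II became 0.17 and -0.20 in the same fits. The median level of complex III was 10.17, 10.23 and 10.24 on the conditional arrays and 9.83 and 9.76 on the controls. The mean level of its 8 genes, measured from its average over the arrays, was -0.06, 0.10 and 0.07 beside -0.05 and -0.05. Conditional 1 thus had a mean level of complex III at that of the controls, although its median was above them.

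**Figure D2:**
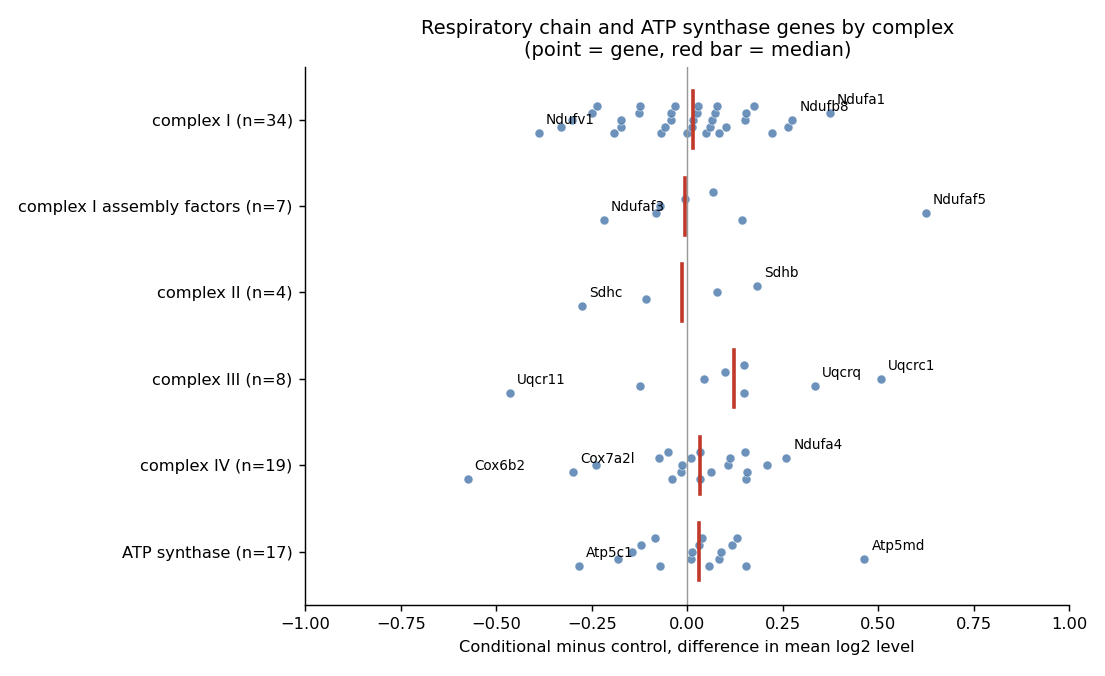
Difference between the conditional and control group means (x axis, log2) for each of the 89 genes, by complex (rows), with the median of each complex as a red bar and selected genes labelled. Most points lie within 0.5 of 0, and Ndufaf5, Uqcrc1 and Cox6b2 are the 3 genes beyond it.

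Complex I takes electrons from NADH through a flavin and a chain of iron-sulfur clusters to ubiquinone. Of its 34 genes, 18 were higher and 16 lower in the conditional group, and 7 had groups that did not overlap (3 higher, 4 lower), which is 20.6% beside 30.5% of all genes. The core subunits that carry the redox groups had a median difference of 0.04 over the 6 measured here, with a range from -0.39 to 0.08. Ndufs1, the largest iron-sulfur subunit, was at 8.29, 8.76 and 8.64 in conditional and at 8.59 and 8.42 in control arrays, a difference of 0.06 ± 0.177 (SE; limma adjusted p = 0.926). Ndufs8, which holds iron-sulfur clusters near the ubiquinone site, differed by 0.07 ± 0.107 (limma adjusted p = 0.832). The groups overlapped for both genes.

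Ndufv1, the flavin-binding subunit that oxidises NADH, was the farthest from 0 of the 6 core subunits. It was at 9.25, 9.45 and 9.29 in conditional and at 9.96 and 9.48 in control arrays. The groups did not overlap, but conditional 2 lay just under control 2, and the high value was that of control 1. The difference was -0.39 ± 0.179 (SE; limma adjusted p = 0.411).

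The accessory subunits of the membrane arm went both ways. Ndufb8 was at 8.66, 8.72 and 8.67 in conditional and at 8.48 and 8.34 in control arrays, with no overlap and a difference of 0.27 ± 0.106 (SE; limma unadjusted p = 0.0487, adjusted p = 0.341). Ndufa1 was at 7.36, 7.89 and 7.53 against 7.08 and 7.37, so that conditional 1 lay below control 2. Its difference was 0.37 ± 0.200 (limma adjusted p = 0.472). Ndufb10 had the opposite sign, at 7.57, 7.84 and 7.77 against 7.84 and 8.28, where conditional 2 lay just under control 1 and only control 2 stood clear. That difference was -0.33 ± 0.176 (limma adjusted p = 0.468).

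Among the 7 Ndufaf genes, whose products build complex I without staying in it, Ndufaf5 differed by the most of all 89 genes with both controls used. It is a methyltransferase-like protein that hydroxylates an arginine of a core subunit. Ndufaf5 was at 6.97, 7.24 and 7.12 in conditional and at 6.29 and 6.69 in control arrays. All conditional values lay above both controls, and the controls were 0.40 apart. The difference was 0.62 ± 0.167, or 1.54-fold, with a 95% confidence interval of 0.20 to 1.05 (limma adjusted p = 0.202). Ndufaf3, an early assembly factor, lay the other way, at 8.93, 9.10 and 9.18 against 9.33 and 9.25, a difference of -0.22 ± 0.122 (limma adjusted p = 0.487). Ndufaf7, which methylates a core subunit, differed by 0.14 and Ndufaf6 by -0.08, with overlapping groups.

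Complex II, succinate dehydrogenase, is also an enzyme of the tricarboxylic acid cycle and has 4 subunits, all encoded in the nucleus. Sdha, the flavoprotein, was at 10.04, 10.25 and 10.14 in conditional and at 10.41 and 10.10 in control arrays (difference -0.11 ± 0.144, limma adjusted p = 0.81). Sdhb, the iron-sulfur subunit, was at 9.11, 9.34 and 9.28 against 9.17 and 8.95 (0.18 ± 0.132, limma adjusted p = 0.595). The groups overlapped for both.

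The membrane anchors of complex II also had opposite signs. Sdhc was at 9.20, 9.20 and 9.22 in conditional and at 9.63 and 9.33 in control arrays, with no overlap and a difference of -0.28 ± 0.130 (limma adjusted p = 0.421). Sdhd was at 9.03, 8.98 and 9.14 against 9.18 and 8.76 and differed by 0.08 ± 0.161 (limma adjusted p = 0.891). All 4 genes of complex II were higher in control 1 than in control 2, and the mean of the complex stood 0.18 above its average in control 1 and 0.14 below it in control 2. The T cell, epithelium and stroma markers also parted these arrays, and their part in this was not tested.

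Complex III passes electrons from ubiquinol to cytochrome c. Uqcrc1, a core protein on its matrix side, had the smallest p-value of the 89 genes. It was at 10.55, 10.54 and 10.66 in conditional and at 10.13 and 10.02 in control arrays. The groups were well apart, and both controls lay close together. The difference was 0.51 ± 0.108 (SE), or 1.42-fold, with a 95% confidence interval of 0.23 to 0.78 (limma unadjusted p = 0.00516, adjusted p = 0.144).

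Uqcrq, a small subunit that contacts cytochrome b, was at 9.80, 9.93 and 9.82 in conditional and at 9.52 and 9.51 in control arrays. Its groups were also apart with the controls nearly equal, and the difference was 0.33 ± 0.105 (limma adjusted p = 0.258). Uqcr11, another small subunit, had the opposite sign, at 8.10, 8.54 and 8.49 against 9.11 and 8.57. Here control 2 lay just above the highest conditional array, and control 1 stood apart. The difference was -0.46 ± 0.227 (limma adjusted p = 0.436).

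The other complex III genes among the 89 were nearer 0. Cyc1, a subunit of complex III that the symbol rule does not hold, differed by 0.30 ± 0.117 (limma adjusted p = 0.351). It was at 9.15, 9.37 and 9.29 in conditional and at 9.02 and 8.94 in control arrays, with no overlap. Uqcrc2, the partner core protein of Uqcrc1, was at 10.76, 10.84 and 10.86 in conditional and at 10.84 and 10.71 in control arrays, a difference of 0.04 ± 0.106 (limma adjusted p = 0.91). Uqcrfs1, the Rieske iron-sulfur protein, was at 8.55, 8.66 and 8.78 against 8.24 and 8.79, so that the controls enclosed all conditional arrays (0.15 ± 0.196, limma adjusted p = 0.808). Uqcr10, a small subunit, differed by -0.12 ± 0.107 (limma adjusted p = 0.67).

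**Figure D3:**
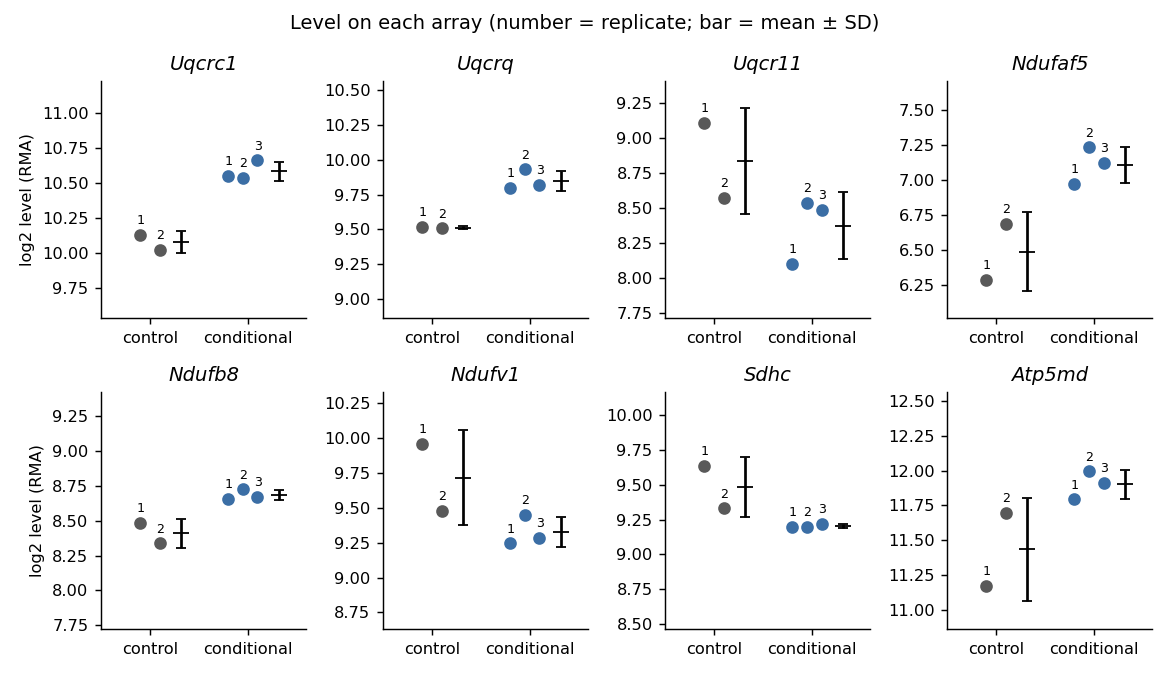
Level of 8 genes on each array (y axis, log2), with the control group in grey and the conditional group in blue, the replicate number beside each point and the group mean ± SD as a bar (n = 3 conditional, n = 2 control). Uqcrc1 and Uqcrq show close controls below all conditional arrays, while for Uqcr11, Ndufaf5, Ndufv1, Sdhc and Atp5md control 1 lies far from control 2.

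Complex IV, cytochrome c oxidase, reduces oxygen to water. Of its 19 genes, 11 were higher and 8 lower in the conditional group, and 4 had groups that did not overlap (2 each way), which is 21.1% beside 30.5% of all genes. Among the subunits found in most tissues, Cox4i1, the general isoform of a regulatory subunit, was at 9.90, 9.93 and 9.91 in conditional and at 10.003 and 9.93 in control arrays. The difference of Cox4i1 was -0.05 with a 95% confidence interval of -0.30 to 0.20 (limma adjusted p = 0.887). Cox5a differed by -0.02, Cox5b by 0.01, Cox6c by 0.06 and Cox7a2 by -0.07, with limma adjusted p-values from 0.853 to 0.981.

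Cox7a2l, which takes part in joining complexes III and IV into supercomplexes, was at 8.54, 8.75 and 8.76 in conditional and at 8.91 and 9.05 in control arrays. All conditional arrays lay below both controls, with a difference of -0.30 ± 0.127 (limma adjusted p = 0.379). Ndufa4, first described as a complex I subunit and now placed in complex IV, was at 8.25, 8.47 and 8.45 against 8.38 and 7.88, a difference of 0.26 ± 0.186 with overlapping groups (limma adjusted p = 0.592).

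The tissue-restricted isoforms replace general subunits in muscle, lung, testis or under low oxygen. The median difference of the 8 measured was 0.13, with 5 higher and 3 lower. Cox6b2, a testis isoform, was at 7.16, 6.68 and 6.64 in conditional and at 7.83 and 6.97 in control arrays, so that conditional 1 lay above control 2. Its difference of -0.58 ± 0.312 was the lowest of the 89 genes and also the least precise (limma adjusted p = 0.476). Cox8c, also a testis isoform, differed by 0.21 ± 0.144 (limma adjusted p = 0.574).

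The muscle isoforms Cox6a2, Cox7a1 and Cox8b differed by 0.15, -0.24 and 0.11, the lung isoform Cox4i2 by -0.01 and the hypoxia-induced Ndufa4l2 by 0.16. Cox7b2, another isoform of this list, differed by 0.15, with all conditional arrays above both controls (limma adjusted p = 0.623). It was dim, at percentile 6.9 of all genes by mean level, with 4.79, 4.56 and 4.70 in conditional and 4.55 and 4.52 in control arrays. The groups of Cox7a1 did not overlap either, with the opposite sign, at 6.96, 6.85 and 7.02 in conditional and 7.26 and 7.11 in control arrays (limma adjusted p = 0.437). The 8 muscle markers had a median difference of -0.34, with 7 of 8 lower in the conditional group, and their part in the Cox7a1 value was not tested.

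ATP synthase turns the proton gradient into ATP by rotation. Of its 17 genes, 11 were higher and 6 lower in the conditional group. The groups did not overlap for 8 (5 higher, 3 lower), which is 47.1% beside 30.5% of all genes. Among the genes at or above the median level that share was 41.3%. In limma 0 of the 17 had an unadjusted p under 0.05. Atp5a1 and Atp5b, the paired subunits of the catalytic head, had opposite signs. Atp5a1 was at 10.71, 10.77 and 10.76 in conditional and at 10.95 and 10.78 in control arrays (-0.12 ± 0.109, limma adjusted p = 0.689). Atp5b was at 12.34, 12.35 and 12.38 against 12.31 and 12.24 (0.08 ± 0.0988, limma adjusted p = 0.778).

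Atp5c1, the central stalk that turns inside the head, was at 10.53, 10.73 and 10.70 in conditional and at 11.01 and 10.87 in control arrays. The groups did not overlap, and the difference was -0.28 ± 0.121 (limma adjusted p = 0.382). Atp5o, which ties the head to the outer stalk, differed by -0.09 ± 0.10 (limma adjusted p = 0.777). The 3 Atp5g genes encode the same mature ring subunit from separate loci. Atp5g1 differed by 0.01 and Atp5g2 by -0.18, and Atp5g3, named here only to complete them, by 0.04.

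Atp5md, a small membrane subunit linked to the pairing of ATP synthase, was the member of this complex farthest from 0. It was at 11.79, 11.99 and 11.91 in conditional and at 11.18 and 11.70 in control arrays. Conditional 1 lay a little above control 2, and control 1 was the array farthest from the others. The difference was 0.46 ± 0.187 (limma adjusted p = 0.358). Atp5l, the g subunit of the membrane part, differed by 0.15 ± 0.113 (limma adjusted p = 0.601).

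Because the control arrays differed in cell type markers, the test was repeated with each control left out. With control 1 alone as the control group, limma called 8 of the 89 genes (8.99%), beside 27.5% of all genes, with 11.0% higher and 16.5% lower. Atp5md (0.72), Ndufaf5 (0.82) and Uqcrc1 (0.45) were higher in the conditional group, and Cox6b2 (-1.01), Ndufc2 (-0.57), Ndufv1 (-0.63), Sdhc (-0.43) and Uqcr11 (-0.73) were lower. Against control 2 alone the differences of these genes were 0.20 for Atp5md, 0.42 for Ndufaf5, -0.14 for Cox6b2, -0.03 for Ndufc2, -0.15 for Ndufv1, -0.12 for Sdhc and -0.20 for Uqcr11. Other genes named above also moved by over 1.5 times between the controls. Against control 1 and control 2 in turn, Ndufb10 differed by -0.11 and -0.55, Ndufa4 by 0.0095 and 0.51, Ndufa1 by 0.52 and 0.23 and Atp5g2 by -0.03 and -0.34. With control 2 alone, limma called 0 of the 89 genes, beside 6.1% of all genes (3.34% higher, 2.77% lower), and 11 of the 89 had an unadjusted p under 0.05. The lowest adjusted p of the 89 in that fit was 0.0656, for Uqcrc1, which differed by 0.56. In both fits a lone control was assumed to vary like the conditional arrays. The share of the 89 genes called was below that of all genes in both.

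The marker lists differed more between the groups than the complexes did. Between the groups, the median difference of the 12 T cell markers was 1.12 with 12 of 12 higher in the conditional group and 0 past the threshold. Their mean level was 11.05, 11.13 and 11.28 in conditional and 8.57 and 11.31 in control arrays, so only control 1 was low. For the 18 epithelium markers the median difference was -1.40 with 18 of 18 lower (2 past the threshold). For the 14 stroma and endothelium markers it was -1.42 with 11 of 14 lower (0 past the threshold). The mean level of this last list was 9.67, 9.37 and 8.56 in conditional and 11.03 and 9.31 in control arrays. Control 2 thus lay within the conditional range. The 12 macrophage and dendritic cell markers had 11 higher, with a median of 0.78, and the 8 B and plasma cell markers 7 lower, with a median of -0.58, and 0 of either list passed. The median difference of each complex lay between -0.01 and 0.12. On single arrays the mean level of each complex stayed between -0.14 and 0.18 of its average. Measured in the same way, the T cell list ran from -2.10 to 0.64 and the stroma and endothelium list from -1.03 to 1.44. The part of these cell types in the differences of single genes was not tested.

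**Figure D4:**
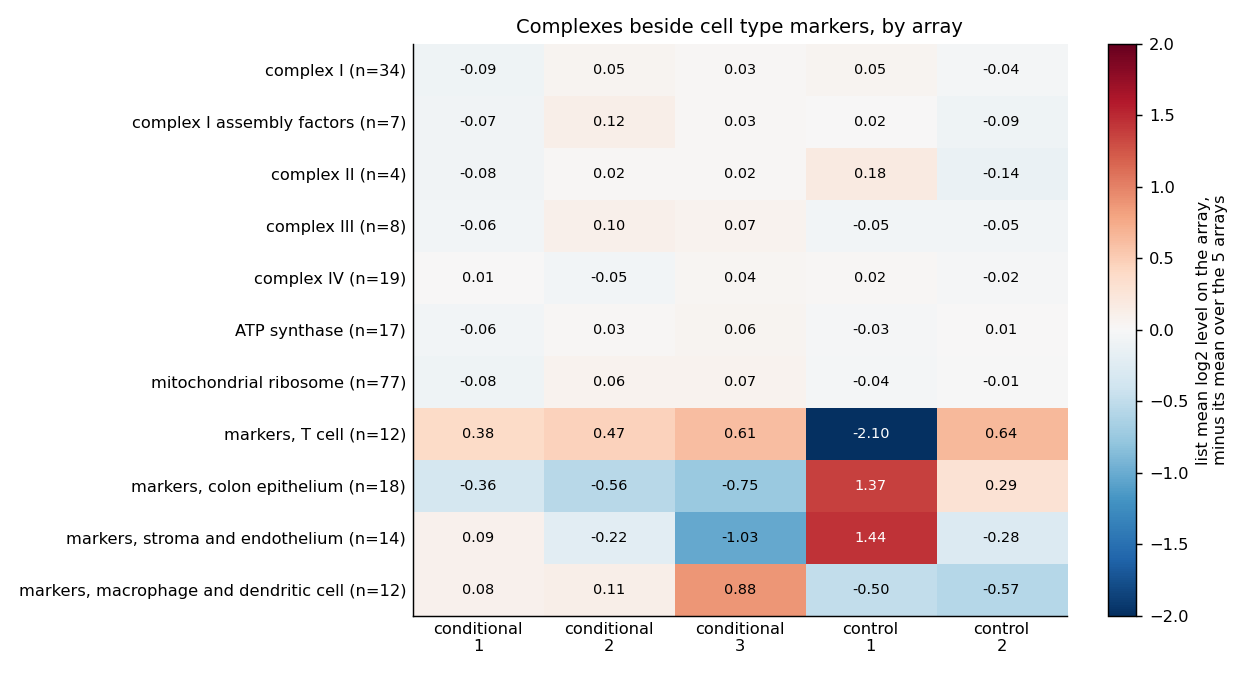
Mean log2 level of each gene list on each array minus its mean over the 5 arrays (colour and printed number), with complexes, the mitochondrial ribosome and cell type markers as rows and arrays as columns. The complexes stay between -0.14 and 0.18 on every array, whereas T cell markers reach -2.10 and epithelium markers 1.37 in control 1.

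Genes outside the symbol rule that belong to the chain or serve it were read from lists beside the 89. Of 14 electron carriers, porins and other chain proteins, 7 were higher and 7 lower, with a median difference of -0.03. None passed the threshold in limma, and 2 (14.3%) had an unadjusted p under 0.05, beside 14.5% of all genes. These were Etfdh, which brings electrons from fatty acid oxidation to ubiquinone (0.48, limma adjusted p = 0.25), and Slc25a3, the phosphate carrier (0.34, limma adjusted p = 0.298). Of 10 genes of ubiquinone synthesis and handling, 0 passed in limma and 3 (30%) had an unadjusted p under 0.05, beside 14.5% of all genes. All 3 were lower, beside 5.91% of all genes, and the median of the list was -0.06. Coq9 differed by -0.39 (limma adjusted p = 0.185) and Coq10b by -0.99 (limma adjusted p = 0.19).

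Assembly factors that the symbol rule does not hold, 34 in number, had a median difference of -0.04. None passed in limma, and 4 higher and 2 lower (17.6%) had an unadjusted p under 0.05, beside 14.5% of all genes. Cox11 and Cox10, which supply copper and heme to complex IV, had the smallest p-values of this list. Cox11 was at 9.52, 9.69 and 9.64 in conditional and at 8.89 and 8.90 in control arrays, a difference of 0.72 (limma adjusted p = 0.08). Cox10 differed by 0.81 (limma adjusted p = 0.187). Both stood farther from 0 than any of the subunits of complex IV, whose products they help to assemble.

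Of 16 genes of the tricarboxylic acid cycle and its entry enzymes, which supply NADH to the chain, 11 were lower and 5 higher, with a median of -0.09. None passed in limma, and 6 lower and 1 higher had an unadjusted p under 0.05. This is 43.8% of the list, beside 14.5% of all genes and 23.0% of the genes at or above the median level. Over all genes 8.59% were higher and 5.91% lower at that p. Of the 16 genes, 12 were higher in control 1 than in control 2, beside 4984 of the 9969 genes at or above the median level. The part of control 1 in the lower values was not tested. Pcx, which makes oxaloacetate from pyruvate, differed by -0.57 (limma adjusted p = 0.179) and Suclg2, a subunit of succinyl-CoA synthetase, by -0.67 (limma adjusted p = 0.241).

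Regulators of mitochondrial biogenesis, 18 in number, had a median difference of 0.03. None passed in limma, and 2 higher and 3 lower (27.8%) had an unadjusted p under 0.05, beside 14.5% of all genes. Ppargc1a, a coactivator of respiratory genes, was at 5.95, 5.71 and 5.61 in conditional and at 7.29 and 6.69 in control arrays. The groups did not overlap, and the difference was -1.23 (limma adjusted p = 0.111). Gabpb1, a subunit of the GABP factor that binds ETS sites of respiratory gene promoters, differed by 0.85 (limma adjusted p = 0.214), with control 1 the lowest array. Nrf1, a factor that binds many respiratory gene promoters, was chosen here after its values were seen and differed by 0.48 (limma adjusted p = 0.239).

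The remaining lists cover import and translation. Of 16 import and folding genes, 11 were higher, with a median of 0.13, and 0 passed in limma while 2 higher and 1 lower (18.8%) had an unadjusted p under 0.05, beside 14.5% of all genes. Timm23, the channel of the inner membrane, differed by 0.57 (limma adjusted p = 0.129) and Tomm20, a receptor of the outer membrane, by 0.59 (limma adjusted p = 0.279). Of 77 proteins of the mitochondrial ribosome, 46 were higher and 31 lower, with a median of 0.05, and 0 passed in limma while 8 higher and 5 lower (16.9%) had an unadjusted p under 0.05, near the 14.5% of all genes. Mrps21 differed by 0.70 (limma adjusted p = 0.185) and Mrps28 by -0.36 (limma adjusted p = 0.215). The 13 genes of mitochondrial DNA are not analysed here.

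Several of the 89 genes have more than 1 probe set and may have processed pseudogenes. In all, 113 probe sets carried a single symbol of the 89 genes, and 17 genes had more than 1. Their differences had the same sign on all probe sets for 14 genes and different signs for Atp5g1, Atp5h and Atp5pb. For 10 genes the brightest probe set, the one used, is numbered among probe sets of genes of another chromosome, and each of these 10 has another probe set numbered among its neighbours on its own chromosome. Which transcripts such probe sets measure was not tested. With the latter used instead, an alternative chosen after seeing the data, 0 of the 89 genes passed in limma (5 with an unadjusted p under 0.05) and the median difference was 0.03. Atp5md then differed by 0.51 in place of 0.46, Atp5g2 by -0.39 in place of -0.18 and Cox7a2l by -0.24 in place of -0.30.

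**Figure D5:**
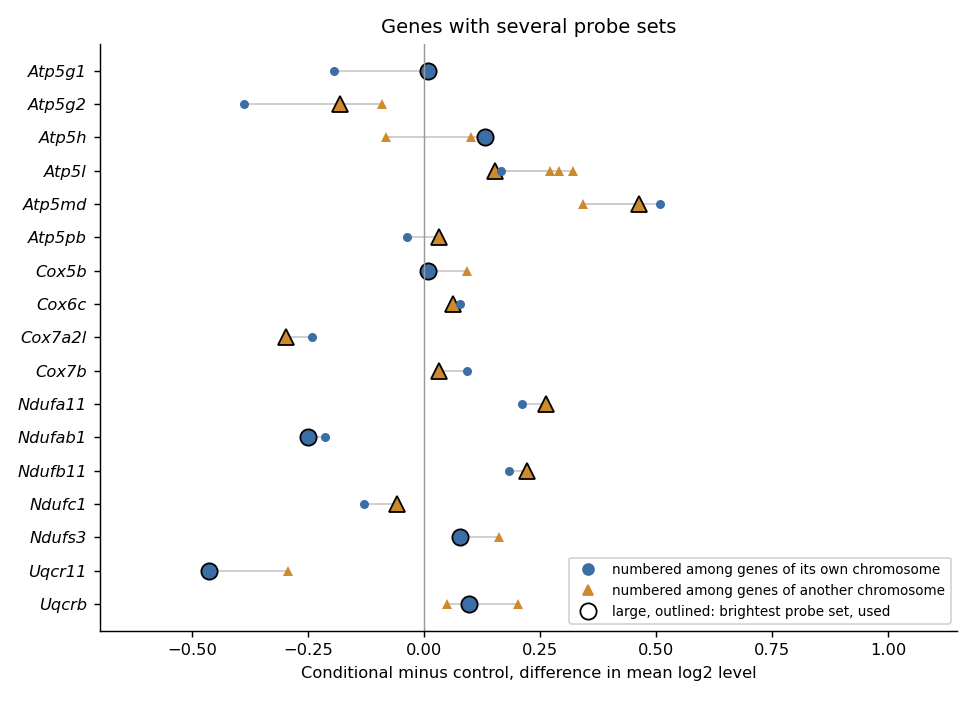
Difference between the conditional and control group means (x axis, log2) on each probe set of the 17 genes with more than 1 (rows), with circles for probe sets numbered among genes of the same chromosome, triangles for those numbered among genes of another, and large outlined marks for the probe set used. For 14 of the 17 genes all marks lie on one side of 0.

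Promoter sequence, which the symbol rule did not use, was searched for motifs of known regulators of respiratory genes. A window from 250 bases before to 50 bases after the start was present in RefSeq's table (GRCm38.p6) for 73 of the 89 genes, and both strands were searched. The NRF1 core (GCGCA, any base, then GCGC) was found for 18 of the 73 (24.7%), beside 7.85% of the array's genes with a promoter entry, and its palindromic form, with T as the open base, which the core includes, for 7 (9.59%), beside 1.61%. The ETS site CCGGAAG was found for 18 (24.7%), beside 13.6%, the YY1 motif AAGATGG for 10 (13.7%), beside 7.28%, and the ERR site AAGGTCA for 7 (9.59%), beside 4.48%. Of the 73 genes, 41 held at least 1 of these motifs, 32 held none and 4 held both the NRF1 core and the ETS site. A match describes letters and shows no binding. The 30-base windows of the 7 genes with the palindrome are shown, since they include Ndufaf5 and Uqcrc1, the genes with the highest differences when both controls were used, with the palindrome in capitals and each read 5′ to 3′ on the strand of its gene.
Ndufaf5: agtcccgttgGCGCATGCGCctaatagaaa
Uqcrc1: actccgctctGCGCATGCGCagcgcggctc
Ndufa11: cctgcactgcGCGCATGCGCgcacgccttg
Ndufaf4: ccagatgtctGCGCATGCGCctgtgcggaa
Atp5g2: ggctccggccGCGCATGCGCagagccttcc
Atp5k: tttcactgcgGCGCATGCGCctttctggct
Cox6a1: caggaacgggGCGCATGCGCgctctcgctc

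These windows lie, in GRCm38.p6, at chr2:140170652-140170681 (plus strand) for Ndufaf5, chr9:108936668-108936697 (plus) for Uqcrc1, chr17:56717692-56717721 (plus) for Ndufa11 and chr4:24897960-24897989 (plus) for Ndufaf4. Those of Atp5g2, Atp5k and Cox6a1 lie on the minus strand, at chr15:102671070-102671099, chr5:108434430-108434459 and chr5:115349101-115349130. The palindrome begins 17 bases after the start in Ndufaf5 and 31 after it in Uqcrc1, and between 42 and 162 bases before the start in the other 5. The same 10 letters thus stand in genes with the highest differences, 0.62 and 0.51, and in genes close to 0, such as Atp5k (0.01) and Cox6a1 (-0.04). Over all 73 genes the median difference was 0.03 with the NRF1 core and 0.03 without it.

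The ETS site is shown for 4 of the genes described above. Of these, Sdhb and Atp5md had a higher and Uqcr11 a lower mean in the conditional group, and Sdhd was near 0. The groups of Sdhb and Sdhd overlapped. The site was also found for Atp5l (0.15) and Ndufs8 (0.07), whose windows are not printed. Capitals mark the site, which reads CTTCCGG where it lies on the other strand.
Sdhb: ctcggagaaaCCGGAAGcggccttccactc
Atp5md: gagggggcgtCTTCCGGtcgggccgagctc
Uqcr11: tctctcctccCCGGAAGtagatgtcaatgt
Sdhd: cgtctcctgcCTTCCGGttcacgcttcagg

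These windows lie at chr4:140961267-140961296 (plus strand), chr19:47090626-47090655 (minus), chr10:80406868-80406897 (minus) and chr9:50603876-50603905 (minus) of GRCm38.p6. The site begins 7 and 3 bases after the start in Sdhb and Atp5md, and 66 and 46 bases before it in Uqcr11 and Sdhd. The median difference was 0.08 over the genes with an ETS site and 0.01 over those without.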

How the data were processed

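RNA of 5 samples was hybridised to Affymetrix arrays. The deposited values are log2 signals in one table, made with RMA in oligo per the submitters' processing notes; their versions, and the genome build, were not given in the sources used here. RMA equalises the arrays' distributions, so a global change in RNA is removed, and it compresses differences of dim genes. Array medians were 7.12 to 7.23, and 5 arrays limit the precision. Of 34760 probe sets, 21640 had 1 symbol, 1321 several and 11799 none here. For each of 19937 genes the probe set brightest on average over the 5 arrays was taken. Groups came from the genotype labels. The groups were compared with limma 3.58.1 in R 4.3.3 (lmFit, eBayes, no covariate, Benjamini-Hochberg over all genes, threshold 0.05). The fit was also tried on data simulated for 3 against 2 arrays (20 runs, 200 of 19937 genes changed). It recovered 22.7%, 77.9% and 95% of log2 changes of 1, 2 and 4, and 5.21% of its calls were false. The simulated noise was independent, with equal variance on all arrays. Weights estimated for the real arrays ran from 0.344 (both controls) to 5.02 (conditional 3), so these rates need not hold for this comparison. The smallest exact permutation p of 3 against 2 arrays is 0.1, so no permutation test was run. In 13 other settings, and 1 added after seeing the data, the fit varied scaling, filter, probe set, variance model, replicate number and arrays. The text names core subunits, tissue-restricted isoforms, the 2 genes farthest from 0 in each direction per complex and the 2 smallest p-values of each other list. Members, lists and rule were chosen with earlier results of these data known. In 6 probe sets with several symbols a rule symbol occurred, and these were left out.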

Additional observations from a re-analysis of the deposited data

How the results depend on the processing

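The 13 other settings and the added one gave 0 of the 89 genes past the threshold in limma, except that leaving out 1 array gave 0 to 8, with 8 without control 2. The count over all genes, 83, became 13 with array weights, 47 with repeated quantile normalization, 0 without any 1 of the conditional arrays, 1217 without control 1 and 5474 without control 2. Centring each array on its median moved the median of all genes to 0.12, and with it the median of the 89 genes to 0.12, of complex III to 0.21 and of ATP synthase to 0.12, so these shifts follow the scaling. Leaving out 1 array gave medians of -0.14 to 0.0307 for the Ndufaf genes, -0.20 to 0.17 for complex II and 0.0044 to 0.17 for complex III. The low and high ends came without control 2 and without control 1 for the Ndufaf genes and complex II, and without control 1 and without conditional 1 for complex III.

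Replicate numbers recur in both groups and were not taken as pairs. The deviations of same-numbered arrays from their group means correlated at 0.40 for number 1 and -0.29 for number 2. The deviations of the 2 controls mirror each other, so these correlations cannot decide whether arrays are paired. A fit with the replicate block called 69 genes and 0 of the 89, with a median difference of the 89 genes of 0.0052.

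Of all 89 genes, 45 kept their direction in every setting. Against control 1 alone and control 2 alone, 35 of the 89 genes (39.3%) had different directions, beside 44.1% of all genes. The named genes include those farthest from 0 in each complex, so their directions need not stand for the 89. Of the 42 named genes, 27 kept their direction in every setting. With median centring Atp5o became 0.0034, Cox4i1 0.0396, Cox4i2 0.0755, Cox5a 0.0719, Cox7a2 0.0162 and Ndufaf6 0.0062. With repeated quantile normalization Atp5g1 became -0.0262, Cox4i2 0.0698 and Cox5b -0.0146, with array weights Cox4i2 0.0125 and Cox5a 0.014, with the mean of all probe sets Atp5g1 -0.0932, and with the replicate block Atp5g1 -0.0185 and Cox5b -0.0149. Leaving out 1 array, differences that changed sign ranged from -0.0605 to 0.0774 for Atp5g1, -0.0505 to 0.0395 for Cox4i2, -0.14 to 0.10 for Cox5a, -0.0149 to 0.039 for Cox5b, -0.10 to 0.41 for Cox6a2, -0.0907 to 0.21 for Cox6c, -0.19 to 0.0229 for Ndufaf6, -0.0393 to 0.20 for Ndufs1, -0.26 to 0.0476 for Sdha, -0.13 to 0.29 for Sdhd, -0.0173 to 0.10 for Uqcrc2 and -0.13 to 0.42 for Uqcrfs1. The cause of these changes was not tested. Uqcrc1 stayed positive throughout, from 0.45 to 0.60, with limma adjusted p-values from 0.0471 to 0.794.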

Other observations

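For some genes of the chain, chosen after their values were seen, the gap between the control arrays was larger than the difference between the groups. Cox6b2 was 0.86 higher in control 1 than in control 2, Ndufb9, an accessory subunit of complex I, 0.72 higher, Ndufaf1, an assembly factor, 0.60 higher and Ndufc2, a membrane subunit of complex I, 0.54 higher. Uqcrfs1 was 0.55 and Atp5md 0.52 higher in control 2. For Ndufb9 the conditional arrays, at 9.56, 9.55 and 9.65, lay between the controls at 9.77 and 9.05. Over the 89 genes, 53 were higher in control 1, beside 7954 of all 19937 genes. At or above the array's median level, 44 of the 74 genes of the chain were higher in control 1, beside 4984 of 9969 genes. The contrast with all genes was thus smaller at a like level.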
